A study of Rattus norvegicus with 36 samples.

Results

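The lowest dose of bis(2-ethylhexyl) tetrabromophthalate (TBPH), 0.07 mg/kg, was compared with vehicle in rat liver, with 6 arrays at the dose and 6 vehicle arrays out of 36 arrays in the series. The members were taken by their labels: every array named for 0.07 mg/kg and every array named for vehicle, and all 31042 probe sets that are not array controls. TBPH is a brominated flame retardant that shares its ester side chains with the phthalate plasticiser DEHP and carries bromine on the aromatic ring. Both groups were male Sprague Dawley rats, 7 weeks old when dosing began, and both were gavaged with corn oil at 5 ml/kg on 5 consecutive days. TBPH at 0.07 mg/kg was dissolved in the oil for 1 group, and the other, the vehicle group, got the oil alone. RNA came from the left liver lobe, collected 1 day after the final gavage, and had passed a minimum RNA integrity number before labelling. The labels number the arrays but do not say that each is a separate animal, so each p-value reflects only how these samples spread, and that spread may be technical.

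Long-chain phthalate esters are known for acting in rodent liver through the nuclear receptor PPAR alpha, which switches on fatty acid omega-oxidation and peroxisomal beta-oxidation. Brominated and chlorinated organics are also known there for acting through CAR and PXR, receptors that induce drug-metabolising cytochromes P450. Hepatocytes also make cholesterol under the control of SREBP2, a transcription factor that is released when membrane sterol is low. Several liver stress responses, among them the one run by the transcription factor ATF4, start within hours of a stimulus.

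No gene passed the test at 0.07 mg/kg. Of 31042 probe sets, 0 passed the Benjamini-Hochberg threshold of 0.05 in limma (0% called), and the smallest adjusted p was 0.999998. An unadjusted p under 0.05 was reached by 953 probe sets (3.07%), 387 of them higher (1.25%) and 566 lower (1.82%) at 0.07 mg/kg, where 5% of the probe sets would be 1552.1. The log2 scale used throughout makes a difference of 1 a doubling. The median difference over all probe sets was -0.0037 log2, and the central 98% of them lay between -0.24 and 0.23. The 95% interval of the difference excluded a 2-fold change for 99.7% of the probe sets and a 1.5-fold change for 97.8%. Among probe sets above the median level of 5.09 log2 these shares were 99.5% and 96.6%. The median standard error of a difference was 0.08 log2.

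Without replicate 4 of the 0.07 mg/kg group, whose array controls differ from the others (values below), the comparison again had 0 calls (0% called). An unadjusted p under 0.05 was then reached by 725 probe sets (2.34%), 304 higher (0.979%) and 421 lower (1.36%). Of the 953 probe sets from all 12 arrays, 520 (54.6%) were under 0.05 with the same sign when replicate 4 was left out.

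**Figure D1:**
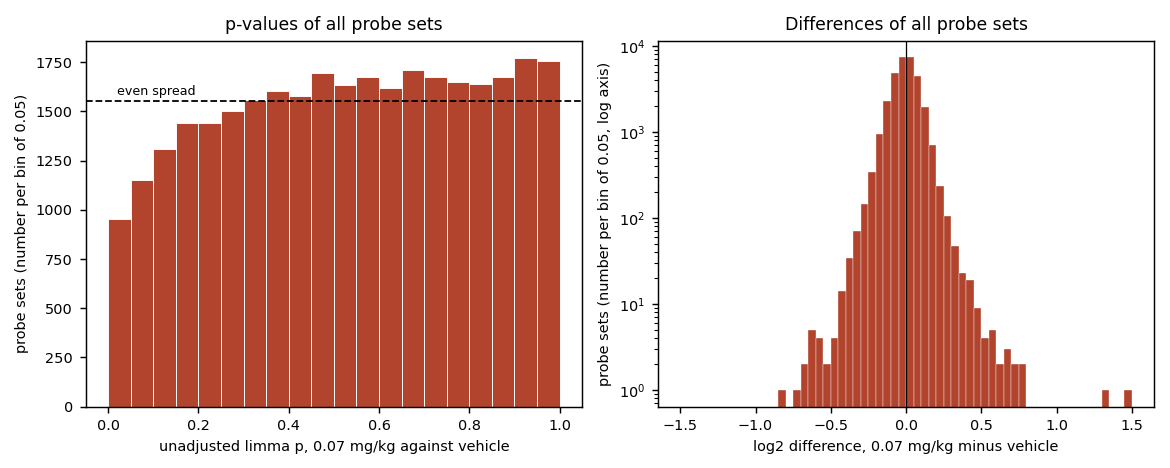
Left, the number of probe sets per bin of unadjusted limma p (x axis) for 0.07 mg/kg against vehicle, with a dashed line at the number an even spread would give. Right, the log2 difference of every probe set (x axis) against the number per bin on a log axis. The lowest p bin holds 953 probe sets, under the line at 1552.1, and nearly all differences lie within 0.5 log2 of 0.

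The groups were also not apart in their whole profile. The share of the variance across probe sets that lay between the groups was 6.92%, and its mean over all ways to split the 12 arrays into 6 and 6 was 9.09% (exact permutation p = 0.942, one-sided). Without replicate 4 the share was 6.83% (exact permutation p = 1 over 462 splits). Correlations between pairs of the 12 arrays across probe sets had a median of 0.994.

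Replicate 4 of the 0.07 mg/kg group stood apart in measures that do not use the groups. Its 3′ minus 5′ control difference for GAPDH was 0.33 log2, against -0.18 to 0.04 in the other 11 arrays. For actin it was 1.67 log2, against 0.99 to 1.24. These controls compare probes at both ends of 1 transcript, and a larger difference means less signal from the 5′ end. In replicate 4, 222 probe sets lay over 1 log2 from the median of the series, against 31 to 65 in the other 11 arrays. As groups, 0.07 mg/kg and vehicle averaged 0.0054 ± 0.17 and -0.07 ± 0.07 log2 for the GAPDH difference (SD, n = 6 each; exact permutation p = 0.387, adjusted p = 0.782 over the family of array measures).

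The tissue label fitted the arrays. The 16 measured hepatocyte markers averaged 12.37 to 12.50 log2 in 0.07 mg/kg arrays and 12.36 to 12.56 log2 in vehicle arrays. Albumin, the main plasma protein of hepatocytes (Alb), averaged 14.75 ± 0.0095 log2 at 0.07 mg/kg and 14.76 ± 0.0091 log2 in vehicle (SD, n = 6 each). The 27 measured markers of pancreas, gut, fat and muscle averaged 4.58 to 4.65 log2 at 0.07 mg/kg and 4.59 to 4.70 log2 in vehicle. Of these 27, 6 lay above the median level of all probe sets, among them Cela1 at 10.12 log2 over the 12 arrays. In whole liver, fewer cells of a type and less RNA per cell cannot be told apart.

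Among genes whose probe sets lay above the median level of 5.09 log2, the 10 with the smallest p on each side differed by 0.15 to 0.44 log2, and none passed the threshold (limma, adjusted p = 0.999998). All 20 had an unadjusted p under 0.05 without replicate 4 as well. They were picked by p from arrays that this refit shares. That count and the overlap below were thus partly fixed by the choice and lend the genes no support. In 4 of the 20 the groups did not overlap: Zswim4, Nudt12 and Xrcc1 were higher in every 0.07 mg/kg array, and Zfp219 was lower in every one. Over all probe sets, 19 lay entirely higher (0.0612%) and 27 entirely lower (0.087%) at 0.07 mg/kg.

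Zswim4, a SWIM-type zinc finger protein, had the smallest p among the higher genes. Its lowest, median and highest log2 values were 5.99, 6.17 and 6.25 at 0.07 mg/kg, against 5.79, 5.88 and 5.93 in vehicle. The difference was 0.28 log2 (95% interval 0.12 to 0.44, unadjusted p = 0.00116), and it was 0.28 log2 without replicate 4 too. Nudt12, a peroxisomal enzyme that hydrolyses NADH and NAD caps on RNA, ran 7.36, 7.43 and 7.49 log2 at 0.07 mg/kg, against 7.14, 7.28 and 7.34 log2 in vehicle. Its difference was 0.16 log2 (unadjusted p = 0.00398), with all 6 dosed arrays above all 6 vehicle arrays. Xrcc1, the scaffold of single-strand break repair, ran 6.87, 6.94 and 7.19 log2 at 0.07 mg/kg, against 6.72, 6.77 and 6.86 log2 in vehicle. Its highest dosed value came from replicate 4, and its difference was 0.19 log2 with that array and 0.15 log2 without it. Minus the same vehicle arrays, Xrcc1 gave 0.15, 0.12, 0.18 and 0.13 log2 from 0.71 to 706 mg/kg. In the same order Zswim4 gave 0.11, 0.13, 0.12 and 0.09 log2, and Nudt12 0.0055, 0.08, 0.09 and -0.0026 log2.

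Acss2, the cytosolic enzyme that turns acetate into acetyl-CoA for lipid synthesis, had the largest difference of the 10 higher genes, 0.44 log2 (95% interval 0.15 to 0.73, unadjusted p = 0.00443). Its lowest, median and highest values were 10.39, 10.56 and 11.05 log2 at 0.07 mg/kg, against 10.04, 10.17 and 10.50 log2 in vehicle. The groups overlapped through 1 vehicle array, replicate 6. The other higher genes were Dennd2a (0.24 log2), a DENN-domain exchange factor for Rab GTPases, and Mical3 (0.36 log2), an actin-oxidising monooxygenase. Klhl17 (0.29 log2) is a kelch-like ubiquitin ligase adaptor, and Tmem245 (0.24 log2) is a transmembrane protein. Add3 (0.31 log2) is an adducin of the membrane skeleton, and Sin3b (0.29 log2) is a corepressor scaffold. Replicate 4 was the highest of the 6 dosed arrays in 7 of these 10 genes. Minus the same vehicle arrays, Mical3 gave 0.31, 0.44, 0.36 and 0.35 log2 from 0.71 to 706 mg/kg. In the same order Sin3b gave 0.24, 0.25, 0.27 and 0.28 log2, and Acss2 0.19, 0.08, 0.24 and 0.25 log2.

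Zfp219, a zinc finger transcription factor, had the tightest values among the lower genes. Its lowest, median and highest values were 7.15, 7.22 and 7.26 log2 at 0.07 mg/kg, against 7.30, 7.37 and 7.40 log2 in vehicle. The difference was -0.15 log2 (95% interval -0.24 to -0.06, unadjusted p = 0.00148). Cul2, the scaffold of the ubiquitin ligase that carries VHL, ran 6.08, 6.31 and 6.65 log2 at 0.07 mg/kg, against 6.44, 6.65 and 6.88 log2 in vehicle. Its difference was -0.32 log2 (unadjusted p = 0.00252), and a second Cul2 probe set gave -0.22 log2 (unadjusted p = 0.0181). The groups overlapped for this gene.

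The rest of the 10 lower genes had differences from -0.44 to -0.20 log2. They were Mrps2 of the mitochondrial ribosome, Sptb, a spectrin, Abcf3, a soluble ABC ATPase, and Ywhaq, a 14-3-3 protein. Ccar1 is a transcription coactivator, Zfp503 a zinc finger repressor, Foxc2 a forkhead factor of mesenchyme and vessels, and Gigyf2 a repressor of translation. Replicate 4 was the lowest dosed array in 5 of the 10. Minus the same vehicle arrays, Ccar1 gave -0.22, -0.18, -0.21 and -0.22 log2 from 0.71 to 706 mg/kg. In the same order Cul2 gave -0.0074, -0.13, -0.08 and 0.08 log2. Of the 20 genes on both sides, 14 had another probe set, and in 2 of them, Cul2 and Zfp503, another probe set had an unadjusted p under 0.05 with the same sign. The brightest probe set gave 0.01 log2 for Sin3b, -0.04 log2 for Ccar1 and -0.0041 log2 for Gigyf2. For Mrps2 (0.06 log2) and Abcf3 (0.02 log2) it had the opposite sign. It kept the sign for Dennd2a (0.08 log2), Tmem245 (0.09 log2) and Ywhaq (-0.15 log2), and for Cul2 and Zfp503.

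**Figure D2:**
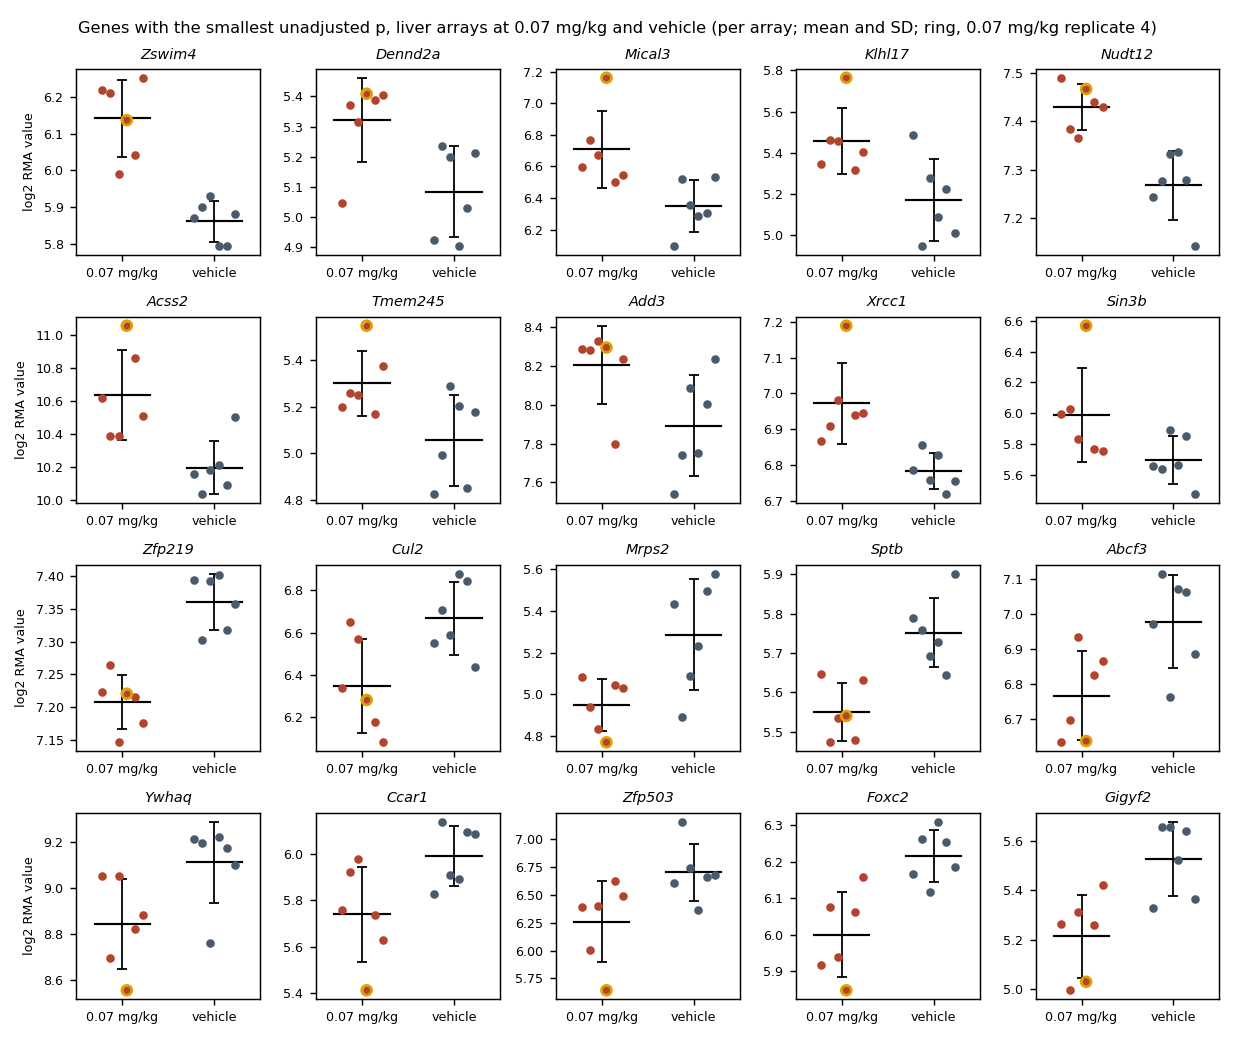
Log2 RMA value (y axes, scaled to each gene) in each 0.07 mg/kg array (left, red) and vehicle array (right, grey) for the 10 higher and 10 lower genes with the smallest unadjusted p, with group mean and SD and a ring on replicate 4 of the dosed group. Zswim4, Nudt12, Xrcc1 and Zfp219 do not overlap between groups, and replicate 4 is the highest dosed array in 7 of the 10 higher genes.

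Over all probe sets, with dim ones included, the smallest p among named genes belonged to Cpsf7, a subunit of a pre-mRNA 3′ end processing factor, Nxph1, a secreted ligand of neurexins, and Zswim4. The Cpsf7 probe set ran 3.26, 3.45 and 3.53 log2 at 0.07 mg/kg, against 3.59, 3.75 and 3.87 log2 in vehicle (-0.31 log2, unadjusted p = 0.00059). The brightest of its probe sets, at 8.05 log2, gave 0.08 log2. Nxph1 ran 4.22, 4.34 and 4.47 log2 at 0.07 mg/kg, against 4.61, 4.66 and 4.69 log2 in vehicle (-0.32 log2, unadjusted p = 0.000705). Both probe sets lie under the median level of 5.09 log2.

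Most of the largest differences above the median level were of genes that varied widely within both groups. Nfe2, a transcription factor known for erythroid cells and platelets, had the largest, 1.31 log2 (95% interval 0.17 to 2.46, unadjusted p = 0.0261). Its values were 5.50, 7.04 and 8.75 log2 at 0.07 mg/kg, against 4.43, 5.43 and 7.27 log2 in vehicle. Replicate 4 held the highest value, and the difference without it was 0.95 log2 (unadjusted p = 0.101). Minus the same vehicle arrays, Nfe2 gave 0.92, 0.91, 1.36 and 1.36 log2 from 0.71 to 706 mg/kg. Set against those doses instead of vehicle, Nfe2 at 0.07 mg/kg differed by 0.17 log2. Of 13 measured erythroid markers, 6 lay above vehicle and 7 below, at a median difference of -0.0039 log2. The list thus did not share the size of the Nfe2 difference, but only 5 of the 13 lay above the median level of all probe sets. Ank1, the ankyrin of the red cell membrane skeleton, was the other erythroid marker with an unadjusted p under 0.05 (0.22 log2), and another of its probe sets gave -0.21 log2. Both Ank1 probe sets were dim, at 4.31 and 3.27 log2.

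Ubd, a ubiquitin-like modifier, differed by 0.72 log2 through a single vehicle array at 5.08 log2, where the vehicle median was 7.93 log2. Mt2A, a metallothionein, differed by 0.70 log2 with an interval of -0.56 to 1.97, and Cish, a feedback inhibitor of cytokine and growth hormone signalling, by 0.70 log2 with an interval of -0.42 to 1.81. Aacs, which turns acetoacetate into acetoacetyl-CoA in the cytosol for sterol and fatty acid synthesis, differed by 0.69 log2 (interval 0.01 to 1.38, unadjusted p = 0.0469) and by 0.47 log2 without replicate 4 (unadjusted p = 0.171). All these groups overlapped.

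On the lower side stood Lox (-0.66 log2), the lysyl oxidase that cross-links collagen, and Xiap (-0.66 log2), an inhibitor of caspases. Xiap ran 4.43, 5.87 and 6.16 log2 at 0.07 mg/kg, against 5.66, 6.26 and 6.58 log2 in vehicle, and replicate 4 was the lowest. Its difference was -0.43 log2 without that array (unadjusted p = 0.0502), and a brighter probe set gave -0.21 log2. Bcl6, a transcriptional repressor, differed by -0.57 log2 with replicate 4 and -0.14 log2 without it. G0s2, an inhibitor of the triglyceride lipase Pnpla2, went the other way: -0.45 log2 with replicate 4 and -0.72 log2 without it (unadjusted p = 0.0182).

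Gene lists were compared by their counts and medians, with the brightest probe set of each gene. Over all 14217 genes 51.6% were higher at 0.07 mg/kg with a median of 0.0026 log2, and without replicate 4 these were 48.3% and -0.0028 log2. Across the 39 lists medians ran from -0.05 to 0.22 log2. Of 825 distinct members 0 passed the threshold, and 16 (1.94%, against 2.46% of all genes) had an unadjusted p below 0.05. Of these 14 were higher and 2 lower. The array means of 0 of the 39 lists were free of overlap between the groups.

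The list with the highest median was cholesterol biosynthesis and uptake. All 19 measured members were higher at 0.07 mg/kg, with a median of 0.22 log2 and a range of 0.0077 to 0.45 log2, and none passed the threshold. Idi1, Mvk, Dhcr7, Tm7sf2, Hsd17b7 and Lss, 6 enzymes of the pathway, had an unadjusted p under 0.05, and with replicate 4 left out 0 of the 19 did. Without that array 17 of 19 were higher, and the median was 0.12 log2. Replicate 4 was above the mean of the other 5 dosed arrays in 18 of the 19 genes, by a median of 0.56 log2. Whether its high control differences go with this list was not tested. With the GAPDH difference as a covariate, Idi1 differed by 0.38 log2 and Mvk by 0.20 log2, and with array weights by 0.41 and 0.22 log2. The array means of the list ran from 10.10 to 10.89 log2 at 0.07 mg/kg and from 10.05 to 10.50 log2 in vehicle.

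Idi1, the isopentenyl-diphosphate isomerase that supplies both building blocks of squalene, had the largest difference of the list. It ran 10.93, 11.29 and 12.13 log2 at 0.07 mg/kg, against 10.66, 10.90 and 11.62 log2 in vehicle. The difference was 0.45 log2 (95% interval 0.07 to 0.82, unadjusted p = 0.0223), and 0.30 log2 without replicate 4 (unadjusted p = 0.102). A second Idi1 probe set gave 0.46 log2. The highest arrays were replicate 4 at 0.07 mg/kg and replicate 6 in vehicle, and the groups overlapped. Sqle, the squalene epoxidase, differed by 0.42 log2, and Insig1, the sterol-sensing anchor of SREBP, by 0.19 log2 with replicate 4 and -0.02 log2 without it. Srebf2, the gene of SREBP2 itself, differed by 0.22 log2 and by 0.07 log2 without replicate 4.

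At the other doses, which share the vehicle arrays, the median of the same list was 0.16 log2 at 0.71 mg/kg, 0.11 at 7.06 mg/kg, 0.19 at 70.6 mg/kg and 0.15 at 706 mg/kg, each minus vehicle. Set against those 4 doses instead of vehicle, the list's median at 0.07 mg/kg was 0.095 log2, from the same 0.07 mg/kg arrays.

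Fatty acid and triglyceride synthesis had 19 of 23 members higher (median 0.08 log2), and 12 of 23 without replicate 4 (median 0.02 log2). Acss2 was its only member with an unadjusted p under 0.05. Scd, the stearoyl-CoA desaturase, differed by 0.21 log2 with replicate 4 and by -0.14 log2 without it, and Fasn, the fatty acid synthase, by 0.31 log2 and 0.14 log2. Elovl6, an elongase of saturated fatty acids, differed by 0.36 log2 and by 0.34 log2 without that array.

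Omega-oxidation and peroxisomal genes, the main PPAR alpha targets, had 16 of 18 members higher, with a median of 0.13 log2, and none passed the threshold. Without replicate 4 the same counts were 16 of 18 and 0.12 log2, and 8 of the 18 were higher in replicate 4 than in the mean of the other 5 dosed arrays. Ehhadh, which carries out the hydratase and dehydrogenase steps in peroxisomes, was the only member with an unadjusted p under 0.05 over all 12 arrays, and without replicate 4 there were 3. It ran 11.24, 11.36 and 11.75 log2 at 0.07 mg/kg, against 10.98, 11.17 and 11.30 log2 in vehicle. The difference was 0.26 log2 (95% interval 0.07 to 0.44, unadjusted p = 0.00824) and 0.19 log2 without replicate 4 (unadjusted p = 0.0415). The groups overlapped by 1 vehicle array. Cyp4a1, the fatty acid omega-hydroxylase, ran 11.30, 11.42 and 12.04 log2 at 0.07 mg/kg, against 11.01, 11.24 and 11.72 log2 in vehicle. That difference was 0.23 log2 (95% interval -0.07 to 0.54, unadjusted p = 0.132), so a doubling lies outside the interval. Acot2, a mitochondrial acyl-CoA thioesterase, differed by 0.16 log2.

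The medians of this list minus vehicle were -0.01 log2 at 0.71 mg/kg, -0.05 at 7.06 mg/kg, -0.03 at 70.6 mg/kg and 0.08 at 706 mg/kg, all from the same vehicle arrays. Minus the other 4 doses, the 0.07 mg/kg median was 0.10 log2, from the same 0.07 mg/kg arrays. For Ehhadh the other doses minus vehicle gave 0.02, -0.05, 0.01 and 0.21 log2 from the lowest to the highest. Mitochondrial fatty acid oxidation and ketone genes had 17 of 23 members higher, with a median of 0.06 log2 and none with an unadjusted p under 0.05.

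Abcg5 and Abcg8 encode the paired subunits of the transporter that sends sterols into bile and gut. They are neighbours on chromosome 6 that are read away from each other, and their start regions overlap. The window of 250 bases before the start of Abcg5 is printed on its own strand because both genes are among the list members with an unadjusted p under 0.05, with the 205 bases it shares with the window of Abcg8 (which reads them from the other strand) in capitals. It lies at chr6:15717686-15717935 on the plus strand of GRCr8, from RefSeq.

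Abcg5: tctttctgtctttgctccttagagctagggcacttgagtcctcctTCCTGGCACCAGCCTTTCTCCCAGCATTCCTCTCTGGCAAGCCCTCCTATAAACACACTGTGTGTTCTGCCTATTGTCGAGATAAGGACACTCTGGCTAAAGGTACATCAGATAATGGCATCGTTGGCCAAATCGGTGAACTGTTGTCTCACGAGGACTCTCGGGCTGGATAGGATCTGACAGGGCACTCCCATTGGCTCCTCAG

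Abcg5 ran 8.54, 8.63 and 8.68 log2 at 0.07 mg/kg, against 7.43, 8.08 and 8.58 log2 in vehicle. The difference was 0.56 log2 (95% interval 0.10 to 1.01, unadjusted p = 0.0183) and 0.55 log2 without replicate 4. Abcg8 ran 6.86, 6.92 and 7.12 log2 at 0.07 mg/kg, against 5.67, 6.61 and 7.02 log2 in vehicle, a difference of 0.49 log2 (unadjusted p = 0.0436). The dosed arrays lay close together and the vehicle arrays were spread out, with vehicle replicates 2 and 1 the lowest for both genes. The SDs were 0.06 log2 at 0.07 mg/kg and 0.46 log2 in vehicle for Abcg5, and 0.11 and 0.55 log2 for Abcg8 (n = 6 each). This contrast in spread was picked out after the values were seen and was not tested. Minus vehicle, Abcg5 gave 0.30, 0.17, 0.54 and 0.50 log2 from 0.71 to 706 mg/kg, with the same vehicle arrays. The transporter list that holds both genes had 20 of 22 members higher, with a median of 0.07 log2.

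**Figure D3:**
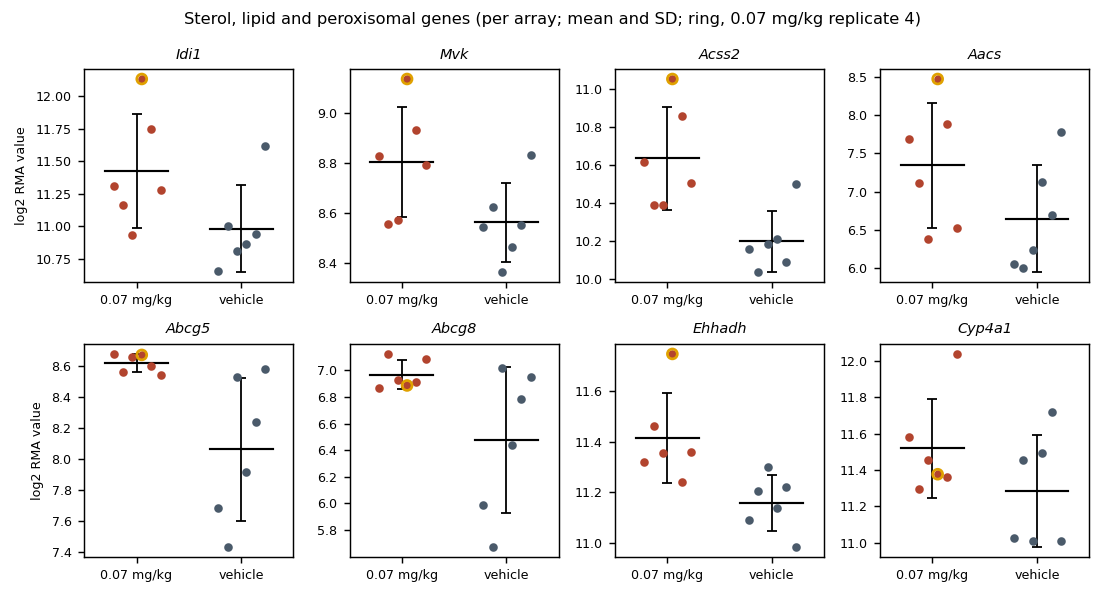
Log2 RMA value (y axes, scaled to each gene) in each 0.07 mg/kg array (left, red) and vehicle array (right, grey), with group mean and SD and a ring on replicate 4 of the dosed group, for genes of sterol and fatty acid synthesis (Idi1, Mvk, Acss2, Aacs), sterol export (Abcg5, Abcg8) and fatty acid oxidation (Ehhadh, Cyp4a1). Replicate 4 is the highest array for Idi1, Mvk, Acss2, Aacs and Ehhadh, and the 6 dosed arrays of Abcg5 lie between 8.54 and 8.68.

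Targets of CAR and PXR had 19 of 24 members higher, with a median of 0.05 log2, and 15 of 24 without replicate 4. Cyp3a23-3a1, the PXR-inducible P450, ran 12.72, 12.85 and 13.03 log2 at 0.07 mg/kg, against 12.03, 12.70 and 13.02 log2 in vehicle. Its difference was 0.23 log2 (95% interval -0.0085 to 0.46, unadjusted p = 0.0584). The targets of the aryl hydrocarbon receptor had 4 of 10 members higher, and Cyp1a1, its best-known target, differed by -0.03 log2 (95% interval -0.24 to 0.18). Cyp7a1, which sets the rate of the classical bile acid pathway, ran 8.71, 10.34 and 11.41 log2 at 0.07 mg/kg, against 9.30, 10.74 and 11.21 log2 in vehicle. The interval of its difference, -1.29 to 0.68 log2 around -0.31, includes a 2-fold decrease.

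Antioxidant genes of NRF2 were split, with 11 of 21 members higher and a median of 0.0014 log2. The only list members on the lower side with an unadjusted p under 0.05 came from this list. They were Gclc, the catalytic subunit of glutathione synthesis (-0.24 log2, unadjusted p = 0.0424), and Txnrd1, the cytosolic thioredoxin reductase (-0.13 log2, unadjusted p = 0.0483). Gclc ran 9.45, 9.75 and 10.06 log2 at 0.07 mg/kg, against 9.71, 10.05 and 10.12 log2 in vehicle. A second probe set of each gene was lower as well, by -0.28 log2 for Gclc and -0.20 log2 for Txnrd1. Replicate 4 was the lowest dosed array for Gclc, and without it the differences were -0.18 log2 for Gclc (unadjusted p = 0.135) and -0.15 log2 for Txnrd1 (unadjusted p = 0.032). Conjugation enzymes had 14 of 27 members higher, with a median of 0.0043 log2.

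Interferon response genes had 31 of 37 members higher, with a median of 0.11 log2 and none with an unadjusted p under 0.05. The dosed array means lay between 7.20 and 7.50 log2, inside the vehicle range of 6.78 to 7.70 log2. The lowest vehicle arrays were replicates 2 and 3, and the highest was replicate 1. Genes of MHC class II antigen presentation had 9 of 11 members higher (median 0.11 log2), again inside the vehicle range (8.12 to 8.46 log2 at 0.07 mg/kg and 7.89 to 8.80 log2 in vehicle). Kupffer cell and macrophage markers, which could move with both lists, had 13 of 16 members higher with a median of 0.05 log2. Their part in these lists was not tested. Lymphocyte markers had 14 of 22 higher with a median of 0.02 log2, and Lck, the T cell kinase, was 0.13 log2 higher (unadjusted p = 0.0445).

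Cell cycle genes had 11 of 40 members higher, the list with the lowest median, -0.05 log2. Its array means ran from 5.32 to 5.68 log2 at 0.07 mg/kg and from 5.34 to 5.89 log2 in vehicle, where replicate 6 was the highest. Without that vehicle array the median was 0.0096 log2, and without vehicle replicate 1 it was -0.0019 log2. Top2a, the topoisomerase of dividing cells, was lowest in the list at -0.23 log2, and Mki67, the proliferation marker, differed by 0.10 log2 (95% interval -0.39 to 0.59). Respiratory chain genes had 44 of 54 members higher by a median of only 0.03 log2, and ribosomal protein genes 20 of 31 by 0.01 log2. Stellate cell and fibroblast markers had 12 of 27 higher (median -0.03 log2), and acute phase genes 11 of 27 (median -0.0022 log2).

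**Figure D4:**
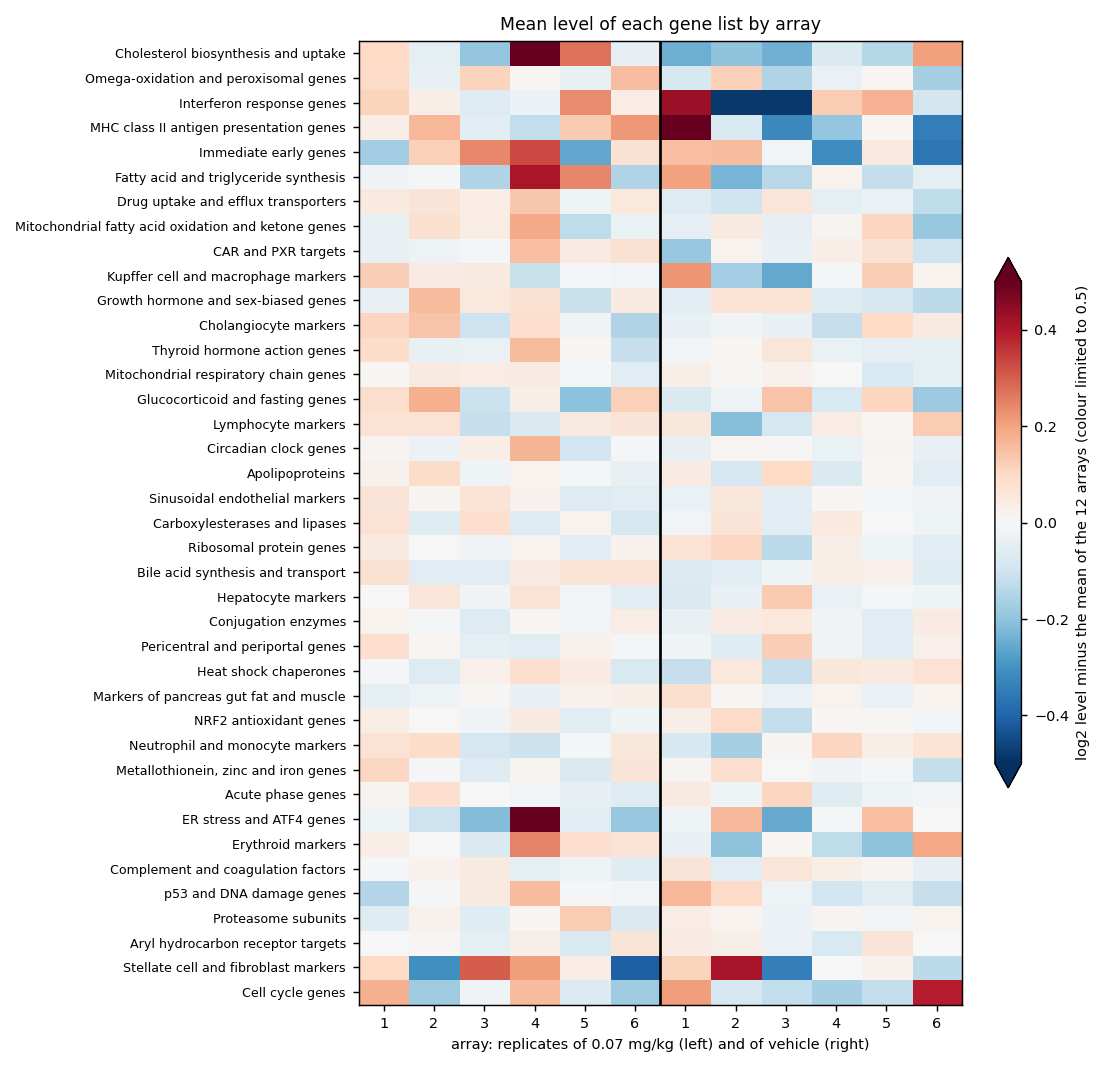
Mean log2 level of each of the 39 gene lists in each array, minus the mean of the 12 arrays (colour, limited to 0.5 log2), with 0.07 mg/kg replicates left of the line, vehicle replicates right of it, and lists in order of their median difference. Cholesterol genes and ER stress and ATF4 genes are highest in replicate 4 of the dosed group, and interferon genes are lowest in vehicle replicates 2 and 3.

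Replicate 4 was set apart from its own group by genes on both sides. By the difference from the mean of the other 5 dosed arrays, the top 5 on the high side were Fgf21 (3.62 log2), Chac1 (3.23 log2), Angptl8 (2.75 log2), Ddit4 (2.61 log2) and Onecut1. Fgf21 is a hormone of fasting and amino acid shortage, Chac1 degrades glutathione, and Angptl8 is an insulin-responsive inhibitor of lipoprotein lipase. Ddit4 restrains mTORC1, and Onecut1 is a liver transcription factor (HNF6). They were chosen for this difference, so it is a description with no test. Fgf21, Chac1 and Ddit4 are known ATF4 targets, and the 4 genes with a start region in the RefSeq table were read for the ATF4 element.

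Shown for each gene are the 250 bases before its start on the gene's own strand (GRCr8, RefSeq), because they are the high-side genes farthest from their group in replicate 4 that the table holds. Capitals mark TGATGNAA, the ATF4 element, on either strand. The windows are chr3:126795881-126796130 (plus strand) for Chac1, chr1:105221377-105221626 (minus) for Fgf21, chr8:28652305-28652554 (plus) for Angptl8 and chr20:28437038-28437287 (minus) for Ddit4.

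Chac1: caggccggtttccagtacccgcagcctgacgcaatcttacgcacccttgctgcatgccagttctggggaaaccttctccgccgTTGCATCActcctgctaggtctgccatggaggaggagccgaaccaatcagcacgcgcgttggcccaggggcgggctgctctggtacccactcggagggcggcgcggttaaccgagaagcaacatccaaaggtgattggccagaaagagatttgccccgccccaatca
Fgf21: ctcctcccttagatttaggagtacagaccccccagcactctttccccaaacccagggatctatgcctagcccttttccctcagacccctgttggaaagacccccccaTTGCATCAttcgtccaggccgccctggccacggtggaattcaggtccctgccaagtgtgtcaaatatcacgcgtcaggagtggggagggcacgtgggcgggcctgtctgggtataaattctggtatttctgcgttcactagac
Angptl8: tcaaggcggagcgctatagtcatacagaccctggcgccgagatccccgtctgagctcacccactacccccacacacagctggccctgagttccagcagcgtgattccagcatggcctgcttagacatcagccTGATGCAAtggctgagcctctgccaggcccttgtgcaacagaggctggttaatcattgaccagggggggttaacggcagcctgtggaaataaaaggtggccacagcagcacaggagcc
Ddit4: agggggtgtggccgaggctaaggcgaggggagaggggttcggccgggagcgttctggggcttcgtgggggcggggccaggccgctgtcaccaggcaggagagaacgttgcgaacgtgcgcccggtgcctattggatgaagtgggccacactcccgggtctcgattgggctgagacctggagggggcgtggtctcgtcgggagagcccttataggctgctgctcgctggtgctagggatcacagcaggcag

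The element begins 167 bases before the start of Chac1, 143 before that of Fgf21 and 118 before that of Angptl8, and these letters are not in the Ddit4 window. It stands in 3 of the 4 windows, in 4 of 25 windows of the ER stress and ATF4 list, and in 3.27% of all 27457 windows of this length. The motif was searched after the genes were known, and a match is a description of letters. The sterol element TCACNCCAC, searched on both strands in the same way, is in 0 of the 6 windows of the cholesterol genes with an unadjusted p under 0.05 and in 0.976% of all windows.

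Chac1 shows how much 1 array weighs in a mean of 6. Its values at 0.07 mg/kg were 6.08 log2 at the lowest, 6.29 at the median and 9.46 in replicate 4, against 5.82, 6.27 and 6.82 log2 in vehicle. The difference was 0.48 log2 with that array (95% interval -0.44 to 1.40) and -0.06 log2 without it. Fgf21 ran 5.84, 6.75 and 10.14 log2 at 0.07 mg/kg, against 6.40, 7.32 and 9.05 log2 in vehicle, a difference of -0.38 log2 with replicate 4 and -0.98 log2 without it (unadjusted p = 0.104). Ddit4 ran 6.02, 6.53 and 9.10 log2 at 0.07 mg/kg, against 6.64, 7.44 and 8.15 log2 in vehicle. Its difference was -0.47 log2, and -0.90 log2 without replicate 4 (unadjusted p = 0.0518). For Angptl8 the same values were -0.31 log2 and -0.77 log2 (unadjusted p = 0.0489 without replicate 4). The dosed arrays other than replicate 4 thus sat below the vehicle median for Fgf21, Angptl8 and Ddit4, and none of these differences passed the threshold.

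The ER stress and ATF4 list as a whole had 13 of 28 members higher (median -0.0025 log2), and 9 of 28 without replicate 4 (median -0.06 log2). In replicate 4 the list's mean was 9.75 log2, while the other 11 arrays lay between 8.94 and 9.35 log2. Within the list Atf3 was 1.97 log2 above the other 5 dosed arrays, Trib3 1.27, Ddit3 1.19 and Atf4 0.97 log2, all of them regulators in the ATF4 response. The chaperones Hspa5 (0.02 log2), Pdia4 (0.01 log2) and Pdia6 (-0.23 log2) lay nearer to the other 5 arrays. Over the whole list 19 of 28 members were higher in replicate 4 than the mean of the other 5, with a median of 0.38 log2. These names were picked after the values were seen.

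On the low side of replicate 4 stood Bcl6 (-2.53 log2), Nr5a2 (-2.44 log2), the nuclear receptor LRH-1, Dyrk2 (-2.16 log2), a protein kinase, Ppp3r1 (-1.79 log2), the regulatory subunit of calcineurin, and Tsn (-1.78 log2), the RNA-binding protein translin. Replicate 5 of the 70.6 mg/kg group, the other array with high control differences, was also low in these genes. It was -2.59 log2 from the other 5 arrays of its dose for Nr5a2, -1.56 for Dyrk2, -1.54 for Ppp3r1, -1.94 for Tsn and -0.77 for Bcl6. For the 4 named ones other than Bcl6 it was the lowest of all 24 arrays at the other doses. On the high side the same array was 1.27 log2 above its group for Fgf21, 0.57 for Chac1, 1.85 for Angptl8 and 0.87 for Ddit4. Deviations from their own groups correlated between both arrays at 0.56 over the probe sets above the median level. Replicate 4 against each of 29 other arrays gave -0.52 to 0.28, a description across probe sets, which are not independent. For the other arrays at 70.6 mg/kg the reference mean held replicate 5 of that dose, which can push their correlations down. Other probe sets of these genes moved less in replicate 4: a brighter Ppp3r1 probe set gave 0.16 log2, and a brighter Nr5a2 probe set -0.41 log2.

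**Figure D5:**
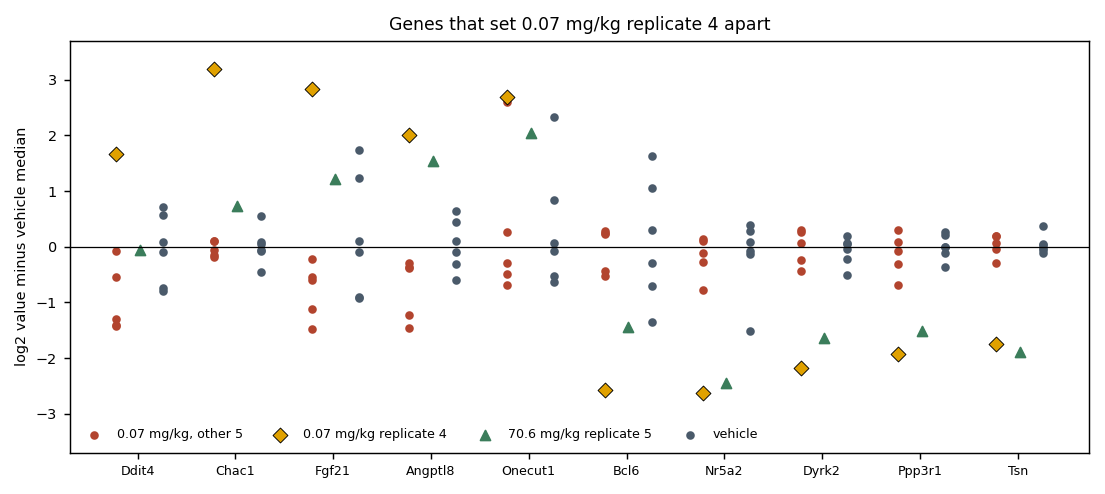
Log2 value minus the vehicle median (y axis) for the 5 genes highest and the 5 lowest in 0.07 mg/kg replicate 4 against the rest of its group (diamonds), with the other 5 dosed arrays (red), replicate 5 of 70.6 mg/kg (triangles) and the 6 vehicle arrays (grey). Nr5a2, Dyrk2, Ppp3r1 and Tsn are low in both arrays of high control difference, while Chac1 at 9.46 log2 in replicate 4 has 7.00 log2 in the other array.

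Several bright genes varied more among arrays of 1 group than between groups. Ugt2b, a UDP-glucuronosyltransferase, was at 5.11 log2 in replicate 1 of 0.07 mg/kg and 5.36 log2 in replicate 5 of vehicle, while the medians were 13.05 log2 at 0.07 mg/kg and 13.16 log2 in vehicle. Each group thus held 1 array far below its others, and the difference was -0.06 log2 (95% interval -2.53 to 2.40). Onecut1 ran 7.15, 7.81 and 10.55 log2 at 0.07 mg/kg, against 6.41, 7.67 and 10.18 log2 in vehicle, and a second probe set was high in the same arrays, replicates 2 and 4 at 0.07 mg/kg and replicate 3 in vehicle. Egr1, an immediate early transcription factor, ran 7.24, 9.48 and 10.50 log2 at 0.07 mg/kg, against 7.24, 8.77 and 10.26 log2 in vehicle. Gadd45g, a growth arrest gene, differed by 0.26 log2 within an interval of -0.91 to 1.44. Serpinb9b, a serine protease inhibitor, differed by 0.04 log2, with 1 vehicle array at 4.77 log2 under a vehicle median of 8.21 log2. For Rup2, a urinary protein of the male liver, 1 probe set differed by 0.63 log2 and 3 brighter ones by -0.04 to 0.01 log2, and probes of such a multigene family can share signal.

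Against the other 4 doses as 1 mean, 0.07 mg/kg again had 0 calls (0% called, smallest adjusted p 0.99995). The 0.07 mg/kg arrays are the same as in the comparison with vehicle, so the comparisons are not independent. An unadjusted p under 0.05 was reached by 1018 probe sets (3.28%), 554 higher (1.78%) and 464 lower (1.49%). Cxcl13, the B cell chemokine, had 4.51, 5.63 and 6.22 log2 at 0.07 mg/kg, against 5.36, 6.35 and 7.26 log2 over the 24 arrays of the other doses. Its difference was -0.82 log2 (95% interval -1.22 to -0.43), and against vehicle it was -0.35 log2. Ntf3, the neurotrophin-3 gene, had 4.82, 5.76 and 5.95 log2 at 0.07 mg/kg, against 4.70, 5.14 and 5.87 log2 at the other doses. Its difference was 0.48 log2 (95% interval 0.24 to 0.71), and 0.42 log2 against vehicle (unadjusted p = 0.00741). Replicate 1 was far below the other 5 dosed arrays. Without it Ntf3 passed the threshold against the other doses (0.64 log2, limma adjusted p = 0.0194), 1 of 2 probe sets that did. Ntf3 was named for its small p in this comparison, and the array left out is the dosed one that most opposes the difference. The result without that array is therefore only a description. Cul2 differed by -0.29 log2 from the other doses, with the same dosed arrays as against vehicle. Sbf2, a myotubularin-related protein, differed by 0.18 log2, and Cryab, a small heat shock protein, by -0.30 log2.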

How the data were processed

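The data are Affymetrix 3′ expression arrays of rat liver total RNA. The authors deposited log2 values, 1 per probe set and array, made with RMA (background correction, quantile normalization, summary per probe set) and affy. Both names come from the labels, per the submitters' processing notes, without version numbers. No genome build is named, so genes have no positions apart from RefSeq promoter windows. The table lists 31099 probe sets, and its 57 array controls were not tested. The array annotation gave 1 symbol for 20826, several for 436 and none for 9780, and only the first were named.

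Limma 3.58.1 in R 4.3.3 was fitted to all 36 arrays with a mean for each group (30 degrees of freedom left for the spread, two-sided tests, Benjamini-Hochberg 0.05 over 31042 probe sets), and was tested on simulated data. R/maanova, named in the series' design text, was not used here. The median standard error was 0.08 log2; arrays give no read depth, and their number limits the precision. The members, lists, tests and settings were chosen with earlier results of these data known. Named genes are those with the smallest p (10 per side above the median level, 3 over all), the largest differences (5 per side), a panel of P450 and other genes, 2 per list by smallest p, the 10 most variable, the 5 per side that set replicate 4 apart, and 5 for the other doses. Not every one is printed, and further list members were picked as examples after their values were seen. Alternatives covered the arrays fitted, replicate block, weights, moderation, normalization, dim probe sets, threshold and each array left out. Leaving out both arrays of high control difference, and renormalization for named genes, were chosen after seeing the data. Figures used matplotlib 3.10.9 in Python 3.11.15.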

Additional observations from a re-analysis of the deposited data

Results flagged for a closer look

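With 6 arrays in a group, an array was singled out when its gap to the nearest other array exceeded Dixon's 95% critical share of the group's range, which chance does in about 1 in 20 groups. Values are log2 unless said otherwise.

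Replicate 4 of 0.07 mg/kg was singled out most often, but the choice of genes partly fixed this in advance. Chac1, Fgf21, Angptl8, Bcl6, Nr5a2, Dyrk2 and Tsn are among the genes named for setting replicate 4 apart from its group. The chance rate above cannot be applied to these genes. Nor can it be applied to genes named for their spread or the size of their difference, such as Ubd, since 1 array can set both. Replicate 4 was highest for Chac1 (9.46, group median 6.29), Fgf21 (10.14, median 6.75), Angptl8 (11.52, median 9.15), Sin3b (6.57), Klhl17 (5.76), Xrcc1 (7.19) and Aldh3a1 (3.56). It was lowest for Bcl6 (5.38, median 7.85), Nr5a2 (5.02), Dyrk2 (4.71), Tsn (5.47), Lyz2, the macrophage lysozyme (8.83, median 10.06), and Tdo2, a hepatocyte enzyme of tryptophan breakdown (12.36, median 12.72). Its array measures were singled out as well: GAPDH 3′ minus 5′ 0.335, actin 3′ minus 5′ 1.67, a correlation of 0.993 with the median of the other 11 arrays, and 222 probe sets over 1 log2 from the series' median (group median 47). Other dosed arrays were replicate 1, lowest for Ugt2b (5.11, median 13.05), Dennd2a (5.05) and Ntf3 (4.82), replicate 5, lowest for Add3 (7.80), and replicate 6, highest for Ahrr (3.48).

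Among vehicle arrays, replicate 5 was lowest for Ugt2b (5.36, median 13.16), and replicate 3 was lowest for Serpinb9b (4.77, median 8.21), Nr5a2 (6.12), Ywhaq (8.76) and Gclc (9.71). Replicate 4 of vehicle was lowest for Ubd (5.08, median 7.93) and Ntf3 (4.91) and highest for Tsn (7.59). Replicate 1 of vehicle was highest for RT1-DMb, an MHC class II chaperone (8.45, median 7.37), and replicate 6 of vehicle was highest for Idi1 (11.62, median 10.90).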

How the results depend on the processing

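No probe set passed the threshold against vehicle under any alternative run. These were the 12 arrays alone, the replicate block, array weights, another moderation, renormalization, probe sets above the median level, 1 probe set per gene, a threshold of 0.1, the GAPDH covariate, both arrays of high control difference left out, and each array left out in turn. Unadjusted p under 0.05 then covered 2.18% to 4.10% of probe sets. With arrays centred on their medians the split of 387 higher and 566 lower became 514 higher and 421 lower, and with a further quantile normalization 509 and 500. Same-numbered arrays correlated at -0.25 to 0.03 in their deviations, and pairs with different numbers were not compared. Whether arrays of 1 number share a litter or day was not tested. The fit with the replicate block gave 0 calls and 2.99% of probe sets with an unadjusted p under 0.05. Against the other 4 doses the count ran from 0 to 2 when 1 array was left out. It was 2 without replicate 1 of 0.07 mg/kg, the lowest dosed array for Ntf3, which then reached 0.64 log2.

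Some differences near 0 turned with 1 array left out, and the cause was not tested. Their ranges over the arrays left out were -0.56 to 0.000699 for Cyp7a1, -0.10 to 0.027 for Cyp1a1, -0.00574 to 0.24 for Mki67, -0.06 to 0.62 for Chac1, -0.00418 to 0.21 for Dnajb1, -0.011 to 0.11 for Stab1, -1.36 to 1.27 for Ugt2b, -0.024 to 0.64 for Gadd45g and -0.54 to 0.21 for Serpinb9b. With both arrays of high control difference left out Cyp1a1 gave 0.014, Chac1 -0.060, Dnajb1 -0.0042 and Stab1 -0.0063, and Stab1 gave -0.0048 with the GAPDH covariate. Without replicate 4 the group difference of the actin control was -0.000515 log2 and that of the correlation with the median array 0.000221.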
